A study of Homo sapiens with 9 samples.

Results

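The integrated stress response and amino acid supply genes comprised 40 of 62703 gene identifiers counted. They were chosen by symbol from knowledge of the pathway, with earlier results of these data known. They were sorted into 7 genes for eIF2, its kinases and its phosphatase subunits, 7 transcription factors, 6 stress effectors or surface and secreted targets, 13 enzymes of amino acid and folate-linked synthesis and 7 amino acid transporters. All 40 matched an identifier and all 40 were among the 17623 genes with enough counts to be tested. The cells were HepG2, a line from a human liver tumour that is widely used as a hepatocyte model. Eliglustat, an inhibitor of glucosylceramide synthase, was given at 20 µM for 72 h or at 30 µM for 72 h, and control cells were untreated, with 3 libraries in each group. For controls no time is labelled. Nor do the labels tie a library to a culture of its own, and each p-value therefore reflects library-to-library spread that could be technical in origin. Values are CPM, which scale each gene's count to its library total after that total was adjusted by a TMM factor. Changes are log2 differences ± SE from edgeR's quasi-likelihood test, and a gene is said to have risen or fallen only where its Benjamini-Hochberg adjusted p over all genes tested was under 0.05.

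The libraries held 21103757 to 26782810 counts in genes. Hepatocyte markers were all detected (11 of 11), and their sum was 33014 to 34315 CPM in controls, 37189 to 37619 CPM at 20 µM and 42079 to 42556 CPM at 30 µM. That sum is carried largely by its most abundant gene, which reached 28143 CPM, while of the 11 genes 7 rose and 2 fell at 20 µM and 4 rose and 5 fell at 30 µM (median log2 changes 0.17 and -0.04). Of 6 fibroblast markers COL1A2 and DCN were at 0 in every library, and the list summed to 1.01 to 1.40 CPM in controls, 1.06 to 1.503 CPM at 20 µM and 3.15 to 3.51 CPM at 30 µM, where its only tested gene rose by 1.82 log2 units. Of 5 leukocyte markers PTPRC was at 0, and the sums were 449 to 496 CPM, 437 to 474 CPM and 636 to 667 CPM in the same order, with LYZ at up to 666 CPM. The 5 endothelial markers were each above 0 in at least 1 library and summed to 4.49 to 5.54 CPM in controls, 4.86 to 6.34 CPM at 20 µM and 3.96 to 4.83 CPM at 30 µM. The part of these markers in the results was not tested. Reads that aligned to more than 1 place made up 12.4% to 12.8% of records in controls, 13.3% to 15.5% at 20 µM and 14.8% to 19.4% at 30 µM. The part of this shift in the results was not tested. In bulk RNA of this kind, fewer transcripts per cell and fewer cells that express a gene cannot be told apart.

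In the integrated stress response, protein kinases that sense different kinds of damage phosphorylate the alpha subunit of the translation factor eIF2. General protein synthesis then slows, while translation of a small set of messages, ATF4 among them, goes up. ATF4 pairs with C/EBP proteins on a short element in its target genes, and those targets make and import amino acids, restrain mTORC1 and, through CHOP, can lead toward cell death. GADD34 and CReP guide a phosphatase back to eIF2 and end the signal. ATF4 and eIF2 are regulated largely at the protein level, which RNA counts do not measure.

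The element, known as CARE, was searched as TGATGNAA on both strands of the RefSeq promoter windows of GRCh38.p14, 250 bases before to 50 bases after each annotated start. Of the 40 genes, 33 had a window and 9 of these 33 held the letters in at least 1 window (27.3%), against 1217 of 27305 gene symbols with a window (4.46%). These shares are not a test, because the genes were chosen from the pathway in which ATF4 uses this element. A gene with more annotated starts also has more windows in which to match. The endoplasmic reticulum stress element, CCAAT and CCACG with 9 bases between them, was in none of the 33 and in 0.0916% of all symbols, and the E-box CACGTG was in 5 of 33, against 8.78% of all. No CARE match overlapped a match of the other elements. The 9 windows are shown because the genes that carry the same letters moved differently at the higher dose, as described below. Each is 60 bases, written 5′ to 3′ on the gene's strand, with the CARE letters in capitals. TTGCATCA and TTACATCA are the element read on the other strand.
ASNS, chr7:97872443-97872502, minus strand: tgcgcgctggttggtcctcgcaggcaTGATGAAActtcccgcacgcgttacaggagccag
CEBPG, chr19:33374045-33374104, plus strand: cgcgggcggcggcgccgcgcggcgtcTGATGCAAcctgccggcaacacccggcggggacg
PPP1R15B, chr1:204412008-204412067, minus strand: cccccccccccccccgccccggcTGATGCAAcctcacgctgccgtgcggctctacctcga
SLC7A1, chr13:29595648-29595707, minus strand: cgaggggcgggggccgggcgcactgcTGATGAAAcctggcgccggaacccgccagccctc
SLC3A2, chr11:62881689-62881748, plus strand: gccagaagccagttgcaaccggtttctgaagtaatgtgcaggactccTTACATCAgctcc
SLC1A5, chr19:46784878-46784937, minus strand: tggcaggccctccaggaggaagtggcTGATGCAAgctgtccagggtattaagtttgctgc
SLC1A4, chr2:64989366-64989425, plus strand: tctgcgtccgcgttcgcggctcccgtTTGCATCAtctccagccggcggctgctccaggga
CHAC1, chr15:40953236-40953295, plus strand: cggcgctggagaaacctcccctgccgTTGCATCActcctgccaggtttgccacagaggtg
JDP2, chr14:75427980-75428039, plus strand: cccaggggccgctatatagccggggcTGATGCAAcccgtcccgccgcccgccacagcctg
ASNS, CEBPG, JDP2, SLC3A2, SLC1A4 and SLC1A5 have more than 1 annotated start, and only 1 window of each held the letters. For SLC1A5 that window was chr19:46784765-46785064, and its windows at 46787244-46787543 and 46788545-46788844 lacked them. Positions are counted from the start of the window with the match. The first base of the element lay 68 bases before the start in ASNS and 42 bases before it in CEBPG. In SLC3A2 and SLC7A1 it lay after the start. A match is a description of the letters and not a site of binding.

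At 20 µM more of the genes rose than fell, and at 30 µM rises and falls were nearer in number. Against controls, 20 of 40 rose and 6 fell at 20 µM, where 17.2% of all genes tested rose and 16.9% fell. At 30 µM 19 of 40 rose and 13 fell, where 29.5% of all genes tested rose and 31.3% fell. Between the doses, 18 of 40 were higher and 17 were lower at 30 µM than at 20 µM, where 28.0% of all genes tested were higher and 28.9% lower. The share that fell against controls was near the background at both doses, and the share that rose was above it. Because the genes were chosen with earlier results of these data known, these shares are a description and not a test of the pathway. The median log2 change of the 40 genes was 0.14 at 20 µM and 0.16 at 30 µM, against 0.009 and -0.04 over all genes tested. With libraries scaled only by their size, 16 of 40 rose and 19 fell at 30 µM against controls, and 12 were higher and 19 lower at 30 µM than at 20 µM. Under that scaling, 3530 of all 17623 genes tested rose and 8022 fell at 30 µM against controls. Between the doses, 3029 were higher and 7690 lower at 30 µM. These counts, and not the shares above, are the background for that setting. By at least 1 log2 unit, 7 rose at 30 µM against controls (7.84% of all genes tested). The comparisons with control share the control libraries, and the comparison between doses shares libraries with each of them.

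Counts by role are read against the same shares of all genes tested. These were 17.2% rising and 16.9% falling at 20 µM and 29.5% and 31.3% at 30 µM. Of 13 synthesis enzymes, 5 rose and 2 fell at 20 µM, and 4 rose and 7 fell at 30 µM, with medians of 0.14 and -0.22. Of 7 transporters, 5 rose and 2 did not pass at 20 µM, while 4 rose and 3 fell at 30 µM (medians 0.11 and 0.29). Transcription factors had 4 risers and 1 faller at 20 µM and 4 risers at 30 µM, where the other 3 did not pass (medians 0.14 and 0.39). Of the 6 effectors, 4 rose at 20 µM, and 4 rose and 1 fell at 30 µM (medians 0.48 and 0.63). Among the 7 eIF2 genes 2 rose and 3 fell at 20 µM, and 3 rose and 2 fell at 30 µM (medians -0.02 and -0.01). Several of these counts are near the shares of all genes tested. The counts describe lists of 6 to 13 genes, and differences between roles were not tested.

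**Figure D1:**
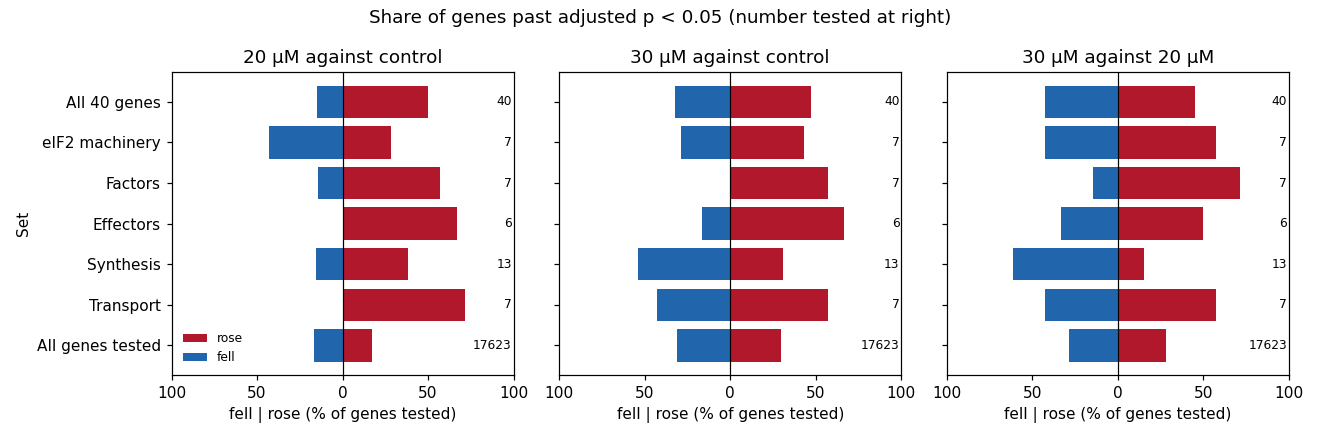
Share of genes past adjusted p under 0.05 that rose (red, right of 0) or fell (blue, left of 0), in percent of genes tested, for all 40 genes, each role and all 17623 genes tested; panels are the 3 comparisons and the number tested stands at the right. Synthesis enzymes have more risers than fallers at 20 µM (5 and 2) and more fallers at 30 µM (7 against 4 risers).

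**Figure D2:**
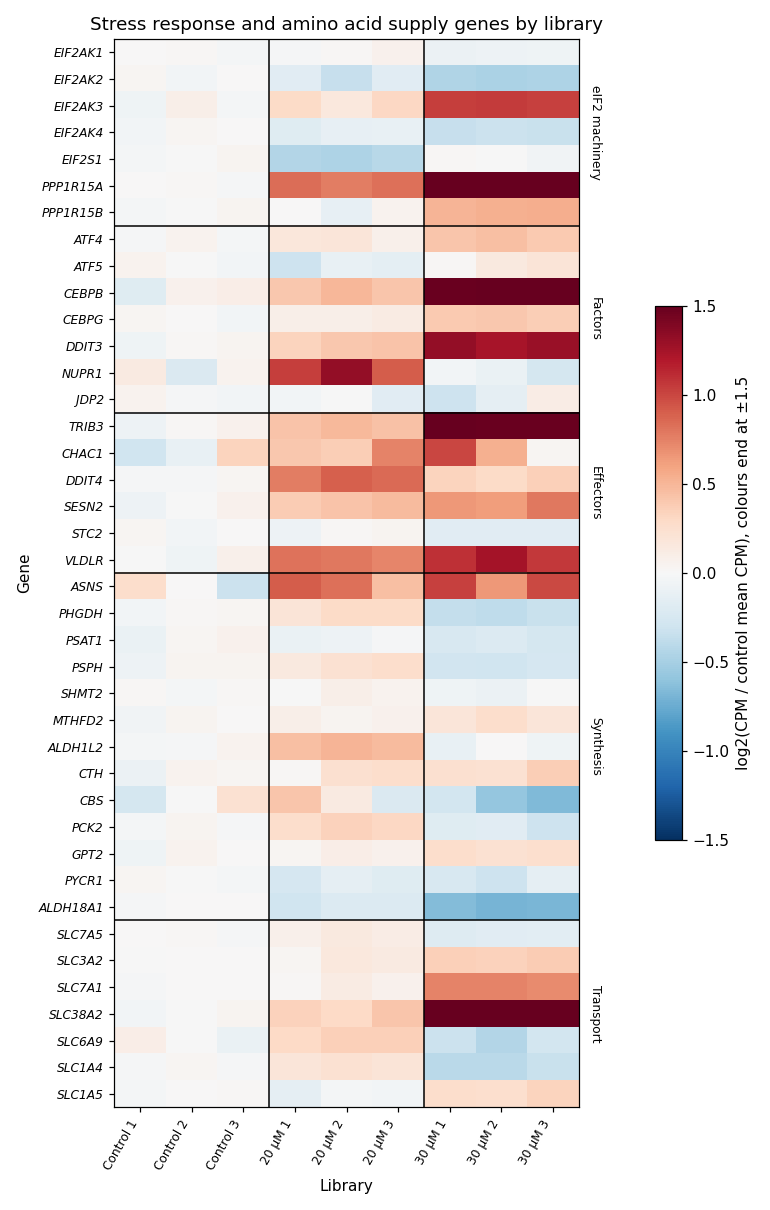
Level of each of the 40 genes (rows, by role) in each of the 9 libraries (columns), as log2 of CPM over the mean of the 3 control libraries; red is higher and blue lower than that mean, and the colours end at 1.5 log2 units. The 3 libraries of a group look alike in most rows, and PPP1R15A, CEBPB, TRIB3 and SLC38A2 are darkest in the 3 libraries at 30 µM.

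Among the 4 eIF2 kinases, transcripts moved apart. EIF2AK3, which encodes the endoplasmic reticulum sensor PERK (chr2:88556741-88627576 on GRCh38, GENCODE 29), was at 47.7, 53.2 and 49.01 CPM in the controls, 61.2, 55.9 and 62.2 CPM at 20 µM and 102, 104 and 102 CPM at 30 µM. It rose at both doses, by 0.26 ± 0.05 at 20 µM (adjusted p = 7.66e-05) and by 1.04 ± 0.049 at 30 µM, or 2.05-fold (adjusted p = 5.02e-19), with no overlap between groups. EIF2AK2, for the sensor of double-stranded RNA PKR, was at 121, 116 and 120.2 CPM in the controls, 106, 93.9 and 106 CPM at 20 µM and 87.03, 86.00 and 86.7 CPM at 30 µM. It fell by 0.23 and by 0.46 log2 units at the lower and the higher dose (adjusted p = 6.71e-05 and 3.78e-11), and its 30 µM libraries all lay below its 20 µM libraries. EIF2AK4, for GCN2, which senses uncharged tRNA, was at 81.5, 85.8 and 84.2 CPM in the controls, 73.7, 76.9 and 77.8 CPM at 20 µM and 66.2, 66.9 and 66.5 CPM at 30 µM. It also fell at both doses (log2 -0.14 ± 0.043, adjusted p = 0.0103 at 20 µM, and log2 -0.33 ± 0.043, adjusted p = 3.78e-08 at 30 µM). Its call at 20 µM was lost without control library 2 (adjusted p = 0.0612) or 20 µM library 1 (0.0573), with 0.00431 to 0.0612 over the 19 alternative settings. EIF2AK1, for the heme-regulated kinase HRI, was at 208, 211 and 204 CPM in the controls, 205, 210.3 and 217 CPM at 20 µM and 195, 198 and 199 CPM at 30 µM. It did not pass the test against controls (0.02 ± 0.034 and -0.08 ± 0.034; adjusted p = 0.714 and 0.0556). At 30 µM it passed as a fall under 7 of the 19 settings (4.11e-09 to 0.245 over them). These were upper-quartile size factors (adjusted p = 0.000821), library size alone (4.11e-09), limma voom (0.0499), the filter at 50 counts (0.0196) and the fits without control library 3 (0.043), 20 µM library 1 (0.0381) or 20 µM library 3 (0.043).

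The kinases' substrate and the phosphatase subunits followed other courses. EIF2S1, the alpha subunit of eIF2, was at 79.6, 80.5 and 83.1 CPM in the controls, 59.8, 58.9 and 60.8 CPM at 20 µM and 82.3, 80.5 and 78.04 CPM at 30 µM. It fell at 20 µM (log2 -0.44 ± 0.043, adjusted p = 6.73e-10), while at 30 µM it was at -0.01 ± 0.043 (adjusted p = 0.79), and the 20 µM libraries did not overlap either other group. PPP1R15A, which encodes GADD34, the inducible subunit that directs phosphatase to eIF2 (chr19:48872392-48876057), was at 13.95, 14.1 and 13.8 CPM in the controls, 25.00, 23.7 and 24.7 CPM at 20 µM and 118, 117 and 120.1 CPM at 30 µM. This was the largest rise of the 40 genes at 30 µM, 8.48-fold (log2 3.08 ± 0.053, adjusted p = 4.70e-31), after 1.76-fold at 20 µM (log2 0.81 ± 0.058, adjusted p = 4.35e-13). PPP1R15B, for the constitutive subunit CReP and a carrier of the CARE letters above, was at 86.5, 88.3 and 91.1 CPM in the controls, 88.7, 81.4 and 92.3 CPM at 20 µM and 126, 128 and 129.7 CPM at 30 µM. At 20 µM its libraries overlapped the controls (log2 -0.02 ± 0.044, adjusted p = 0.79), and at 30 µM it rose (log2 0.53 ± 0.043, adjusted p = 1.15e-12). Per length of annotated exon, the order of the pair turned: PPP1R15A was at 4.51 ± 0.0561 RPKM in controls, 7.91 ± 0.225 at 20 µM and 38.2 ± 0.556 at 30 µM, and PPP1R15B at 16.95 ± 0.438, 16.7 ± 1.07 and 24.5 ± 0.357 RPKM (mean ± SD, n = 3 libraries).

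**Figure D3:**
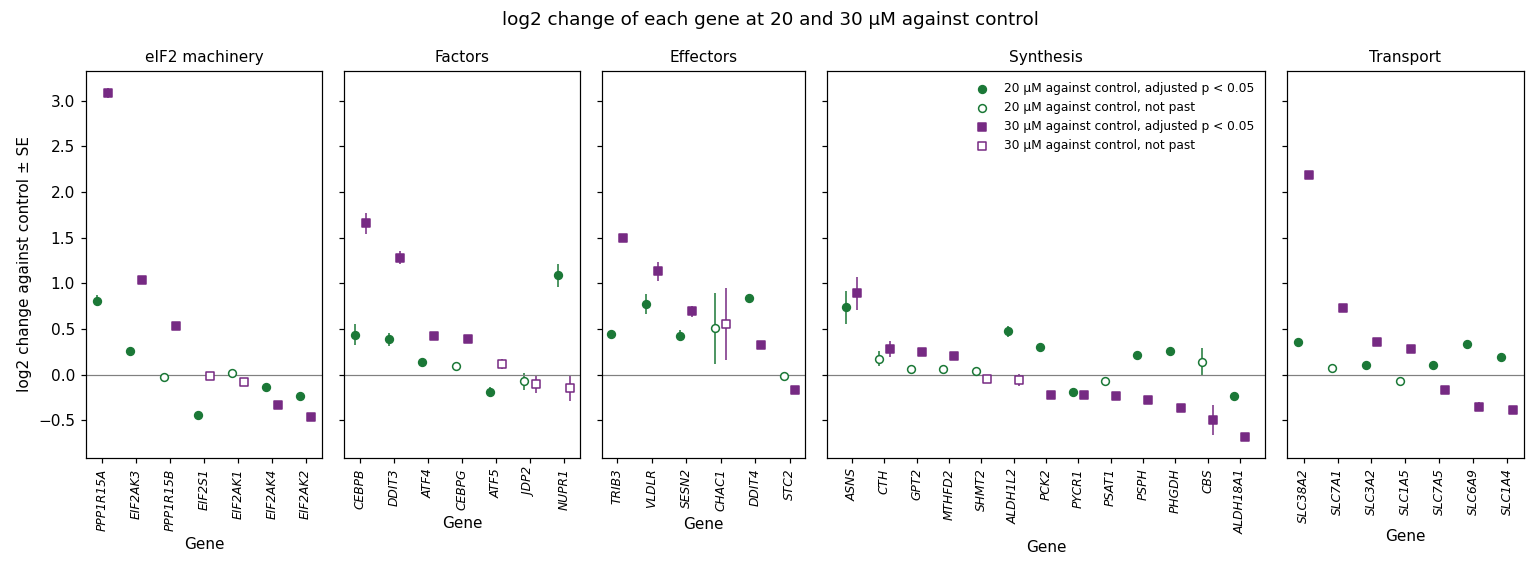
log2 change ± SE of each of the 40 genes against control at 20 µM (green circles) and 30 µM (purple squares), by role and sorted by the change at 30 µM; filled marks are past adjusted p under 0.05. PPP1R15A (3.08) and SLC38A2 (2.18) stand highest at 30 µM, and ALDH18A1 (-0.68) lowest.

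ATF4, the central factor of the response, rose modestly and in both steps at the RNA level. It was at 372, 390.0 and 368 CPM in the controls, 423, 427 and 398 CPM at 20 µM and 504, 514 and 495 CPM at 30 µM. Neither treated group overlapped the controls, and the changes were log2 0.14 ± 0.034, adjusted p = 0.00105 at 20 µM and log2 0.42 ± 0.034, adjusted p = 7.27e-13 at 30 µM. DDIT3, which encodes the death-linked factor CHOP, was at 14.3, 15.1 and 15.3 CPM in the controls, 18.8, 19.7 and 19.96 CPM at 20 µM and 36.99, 35.2 and 36.6 CPM at 30 µM. It rose 1.31-fold at 20 µM (log2 0.39 ± 0.069, adjusted p = 3.10e-05) and 2.44-fold at 30 µM (log2 1.28 ± 0.067, adjusted p = 8.57e-18). CEBPB, a C/EBP factor and dimer partner of ATF4, was at 69.8, 82.9 and 84.8 CPM in the controls, 105, 112 and 106 CPM at 20 µM and 222, 246 and 281 CPM at 30 µM. Its libraries did not overlap between groups. It rose by 1.66 ± 0.111 at 30 µM (adjusted p = 1.13e-05) and by 0.44 ± 0.113 at 20 µM (adjusted p = 0.0237). The call at 20 µM was lost without any 1 of the 20 µM libraries (adjusted p = 0.0584, 0.0802 and 0.0623 without libraries 1, 2 and 3; 4.95e-07 to 0.0802 over the 19 settings).

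CEBPG, the C/EBP partner that forms heterodimers with ATF4 on CARE sequences and carries one itself, was at 71.7, 70.2 and 68.4 CPM in the controls, 74.5, 74.7 and 76.4 CPM at 20 µM and 92.3, 92.9 and 90.6 CPM at 30 µM. It rose at 30 µM (log2 0.39 ± 0.042, adjusted p = 6.42e-10), and at 20 µM it was at 0.10 ± 0.042 (adjusted p = 0.062) although its libraries all lay above the controls. ATF5, a related factor also controlled in translation, was at 45.2, 43.6 and 42.4 CPM in the controls, 35.3, 40.4 and 39.5 CPM at 20 µM and 44.3, 48.3 and 49.96 CPM at 30 µM. It fell at 20 µM (log2 -0.19 ± 0.058, adjusted p = 0.0106), was at 0.12 ± 0.058 at 30 µM (adjusted p = 0.0704) and was higher at 30 µM than at 20 µM (log2 0.31 ± 0.058, adjusted p = 2.85e-05). The fall at 20 µM was lost without control library 1 (adjusted p = 0.0562) or 20 µM library 1 (0.105), with 0.0048 to 0.105 over the 19 settings, and at 30 µM it passed as a rise without 30 µM library 1 (0.0265), with median-ratio size factors (0.0328) and with only the groups compared in the fit (0.0246; 0.0246 to 0.388 over the settings). NUPR1, a small stress-induced chromatin protein, showed the sharpest turn with dose of the 40 genes. Its values were 5.31, 4.15 and 4.99 CPM in the controls, 9.89, 11.99 and 9.02 CPM at 20 µM and 4.68, 4.50 and 4.01 CPM at 30 µM. The 20 µM libraries all lay above both other groups: it rose 2.13-fold at 20 µM (log2 1.09 ± 0.13, adjusted p = 3.22e-08) and was 2.34-fold lower at 30 µM than at 20 µM (log2 -1.23 ± 0.133, adjusted p = 1.23e-09). At 30 µM it overlapped the controls (-0.14 ± 0.142, adjusted p = 0.405). JDP2, a repressor of the AP-1 family and a carrier of CARE letters, ranged from 11.02 to 14.8 CPM over all 9 libraries and passed none of the 3 tests with TMM scaling.

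TRIB3, a pseudokinase induced by ATF4 and CHOP that feeds back on them, had the highest level per exon length and the largest rise of the 6 at 30 µM. It was at 209, 223 and 229.9 CPM in the controls, 297, 309 and 298 CPM at 20 µM and 632, 615 and 617 CPM at 30 µM. It rose 1.37-fold at 20 µM (log2 0.45 ± 0.035, adjusted p = 2.66e-12) and 2.82-fold at 30 µM (log2 1.49 ± 0.035, adjusted p = 2.68e-27). SESN2, which encodes sestrin 2, a leucine-binding inhibitor of mTORC1, was at 29.1, 30.5 and 31.98 CPM in the controls, 39.8, 41.1 and 42.3 CPM at 20 µM and 48.1, 47.1 and 52.9 CPM at 30 µM. It rose at both doses (log2 0.43 ± 0.058, adjusted p = 3.31e-07 at 20 µM; log2 0.69 ± 0.058, adjusted p = 1.75e-12 at 30 µM). DDIT4, for the mTORC1 inhibitor REDD1, was at 89.02, 89.3 and 91.9 CPM in the controls, 153, 168 and 163 CPM at 20 µM and 114, 109.8 and 115 CPM at 30 µM. Unlike SESN2, it was highest at 20 µM, 1.79-fold over controls (log2 0.84 ± 0.04, adjusted p = 3.53e-17), and still raised at 30 µM (log2 0.33 ± 0.041, adjusted p = 2.06e-08), where it was below its 20 µM level (log2 -0.51 ± 0.04, adjusted p = 5.45e-13). VLDLR, a lipoprotein receptor gene that ATF4 can induce, was at 5.63, 5.41 and 5.96 CPM in the controls, 9.93, 9.81 and 9.43 CPM at 20 µM and 12.1, 13.4 and 11.9 CPM at 30 µM. Its changes were 0.78 ± 0.107 at 20 µM and 1.13 ± 0.105 at 30 µM (adjusted p = 4.57e-07 and 2.64e-11).

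The remaining effectors did not rise. STC2, a secreted glycoprotein hormone, was at 109.9, 105 and 108 CPM in the controls, 102, 109 and 110.2 CPM at 20 µM and 95.8, 95.5 and 95.5 CPM at 30 µM. It fell slightly at 30 µM (log2 -0.17 ± 0.04, adjusted p = 0.000486) and overlapped the controls at 20 µM (-0.01 ± 0.04, adjusted p = 0.918). CHAC1, a glutathione-degrading enzyme often used as a marker of ATF4 activity, had only 10 to 21 counts in a library. Its estimates were 0.51 ± 0.389 at 20 µM and 0.56 ± 0.391 at 30 µM (adjusted p = 0.347 and 0.225), so a change of that size was not detectable at this depth, although its window holds the CARE letters.

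**Figure D4:**
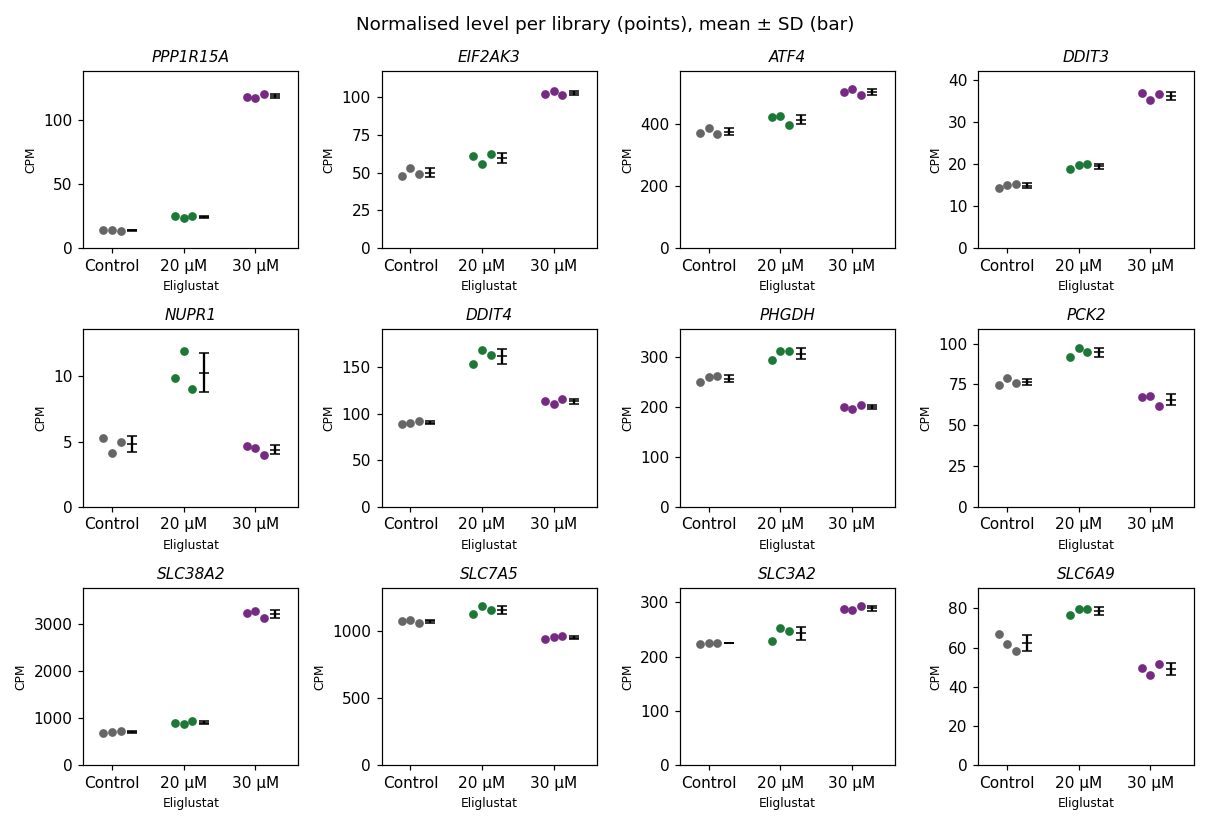
CPM in each library (points, 3 per group) for 12 of the genes at control, 20 µM and 30 µM, with the mean and SD beside the points; every axis starts at 0. PPP1R15A, EIF2AK3, ATF4, DDIT3, SLC38A2 and SLC3A2 are highest at 30 µM, whereas NUPR1, DDIT4, PHGDH, PCK2, SLC7A5 and SLC6A9 are highest at 20 µM.

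Transcripts of all 3 enzymes of serine synthesis were lower at 30 µM. PHGDH, which draws carbon from glycolysis into the pathway (chr1:119648411-119744226), was at 250.2, 261 and 262 CPM in the controls, 295, 314 and 313 CPM at 20 µM and 200.2, 197 and 205 CPM at 30 µM. It rose at 20 µM (log2 0.26 ± 0.034, adjusted p = 3.07e-07) and fell below the controls at 30 µM (log2 -0.36 ± 0.035, adjusted p = 7.73e-11), with no overlap among the 3 groups. PSPH, the last step, was at 103, 112 and 112 CPM in the controls, 120.2, 127 and 131 CPM at 20 µM and 89.1, 88.5 and 91.6 CPM at 30 µM. It rose and fell in the same way, with log2 0.21 ± 0.042, adjusted p = 0.000122 at 20 µM and log2 -0.28 ± 0.043, adjusted p = 9.15e-07 at 30 µM. PSAT1, the transaminase between them, was at 402, 442 and 451 CPM in the controls, 402, 408 and 426 CPM at 20 µM and 367, 374 and 359 CPM at 30 µM. It fell at 30 µM (log2 -0.24 ± 0.037, adjusted p = 1.61e-06) and overlapped the controls at 20 µM (-0.07 ± 0.037, adjusted p = 0.17). At 20 µM it passed the test as a fall without control library 1 (-0.12, adjusted p = 0.0127). It also passed without control 1, 20 µM 3 and 30 µM 3 together (-0.14, adjusted p = 0.00232), and the 19 settings gave 0.00232 to 0.563.

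Downstream of serine, the mitochondrial folate enzymes diverged. SHMT2, which splits serine into glycine and a folate-bound carbon, stayed between 404 and 454 CPM in all 9 libraries and did not pass the test against controls (0.04 ± 0.033 and -0.05 ± 0.033; adjusted p = 0.364 and 0.199). At 30 µM it passed as a fall with upper-quartile size factors (-0.11, adjusted p = 0.00435) and with library size alone (-0.26, adjusted p = 1.26e-08), with 1.26e-08 to 0.557 over the 19 settings. MTHFD2, the next enzyme, was at 186, 197 and 194 CPM in the controls, 204, 198 and 202 CPM at 20 µM and 218, 231 and 218 CPM at 30 µM. It rose at 30 µM (log2 0.21 ± 0.036, adjusted p = 6.44e-06), but not when libraries were scaled by their size alone (log2 -0.0027). ALDH1L2, which burns the folate-bound carbon to carbon dioxide and NADPH, was at 25.2, 25.4 and 26.8 CPM in the controls, 35.3, 36.7 and 35.8 CPM at 20 µM and 23.8, 25.9 and 24.7 CPM at 30 µM. It rose at 20 µM (log2 0.48 ± 0.06, adjusted p = 8.00e-08) and was back among the controls at 30 µM (-0.06 ± 0.062, adjusted p = 0.459).

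Transcripts of both enzymes of proline synthesis fell at both doses. ALDH18A1, which makes the glutamate semialdehyde precursor, was at 444, 449.9 and 451 CPM in the controls, 366, 388 and 388 CPM at 20 µM and 286, 276 and 278 CPM at 30 µM. It was the deepest faller of the 40 genes at 30 µM (log2 -0.68 ± 0.033, adjusted p = 1.05e-18) and was lower at 20 µM as well (log2 -0.24 ± 0.032, adjusted p = 4.02e-07). PYCR1, the final reductase, was at 216, 213 and 209 CPM in the controls, 178, 194 and 188 CPM at 20 µM and 180.2, 172 and 194 CPM at 30 µM. It fell by a similar amount at each dose (-0.19 ± 0.04 and -0.22 ± 0.04; adjusted p = 0.000342 and 1.22e-05). Between the doses PYCR1 was at -0.04 ± 0.04 (adjusted p = 0.457), while ALDH18A1 fell further (log2 -0.44 ± 0.033, adjusted p = 1.29e-13).

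PCK2, the mitochondrial enzyme that turns oxaloacetate into phosphoenolpyruvate, was at 74.96, 78.9 and 75.9 CPM in the controls, 92.1, 97.1 and 94.8 CPM at 20 µM and 67.6, 68.02 and 61.7 CPM at 30 µM. Like PHGDH it rose at 20 µM (log2 0.31 ± 0.045, adjusted p = 1.23e-06) and fell at 30 µM (log2 -0.22 ± 0.046, adjusted p = 0.0001). GPT2, the mitochondrial alanine transaminase, moved the other way at the higher dose, at 168, 182 and 175 CPM in the controls, 179, 188 and 183 CPM at 20 µM and 209.9, 205 and 208 CPM at 30 µM. It rose at 30 µM (log2 0.25 ± 0.036, adjusted p = 3.94e-07); scaled by library size alone it was at 0.037 (adjusted p = 0.376, with 5.66e-11 to 0.376 over the 19 settings). CTH, which releases cysteine from cystathionine, was at 14.1, 15.6 and 15.4 CPM in the controls, 15.2, 17.8 and 18.04 CPM at 20 µM and 17.7, 17.6 and 19.4 CPM at 30 µM. It rose at 30 µM (log2 0.28 ± 0.083, adjusted p = 0.00388), a call lost with library size alone (adjusted p = 0.461) and without a trio of libraries that an earlier analysis of these counts had set apart, control 1, 20 µM 3 and 30 µM 3 (0.115; 0.00169 to 0.461 over the 19 settings). At 20 µM CTH was at 0.18 ± 0.083 (adjusted p = 0.1), and passed as a rise without 20 µM library 1 (0.0265; 0.0265 to 0.583 over the settings). CBS, the step before it, was at 4.88, 5.86 and 6.86 CPM in the controls, 7.82, 6.43 and 5.06 CPM at 20 µM and 4.86, 3.92 and 3.72 CPM at 30 µM. Its fall at 30 µM (log2 -0.50 ± 0.163, adjusted p = 0.00913) was lost without control library 3 (adjusted p = 0.0806; 0.000437 to 0.0806 over the 19 settings), and the gene has a near-identical copy in GRCh38, so its level is uncertain.

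ASNS, the asparagine synthetase gene and a classical ATF4 target, rose at both doses from a low count. It had 83, 55 and 55 counts in the controls, 123, 105 and 83 at 20 µM and 109, 94 and 119 at 30 µM. On the CPM scale these were 2.98, 2.48 and 1.98 CPM in the controls, 4.64, 4.38 and 3.39 CPM at 20 µM and 5.05, 3.88 and 4.91 CPM at 30 µM, with no overlap between treated and control libraries. The rises were log2 0.74 ± 0.182, adjusted p = 0.00153 at 20 µM and log2 0.89 ± 0.182, adjusted p = 7.09e-05 at 30 µM, and the doses did not differ by the test (log2 0.15 ± 0.173, adjusted p = 0.479). In GENCODE 29, 44.6% of the exon bases of ASNS also belong to another gene on the same strand (ENSG00000284707). If reads in shared exons were left unassigned, the counts cover only part of the transcript.

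Transporters gave the largest rise after PPP1R15A. SLC38A2, the sodium-coupled carrier of small neutral amino acids SNAT2 (chr12:46358189-46372867), was at 691, 708 and 731 CPM in the controls, 902, 874 and 946 CPM at 20 µM and 3250.4, 3287 and 3133 CPM at 30 µM. It rose 1.28-fold at 20 µM (log2 0.35 ± 0.032, adjusted p = 1.23e-10) and 4.54-fold at 30 µM (log2 2.18 ± 0.034, adjusted p = 2.40e-32), with every 30 µM library above the highest library of either other group. SLC7A1, the carrier of arginine and lysine CAT1, was at 227, 229.9 and 231 CPM in the controls, 232, 249 and 239.9 CPM at 20 µM and 383, 383 and 376 CPM at 30 µM. It rose at 30 µM (log2 0.73 ± 0.033, adjusted p = 2.28e-19), while at 20 µM it was at 0.07 ± 0.033 (adjusted p = 0.11), and passed as a rise without 20 µM library 1 (adjusted p = 0.0427) or with upper-quartile size factors (0.0482; 0.0427 to 0.391 over the 19 settings). SLC1A5, the glutamine carrier ASCT2, was at 341, 350.1 and 353 CPM in the controls, 318, 342 and 339 CPM at 20 µM and 419, 414 and 440.3 CPM at 30 µM. It rose at 30 µM (log2 0.29 ± 0.034, adjusted p = 7.63e-09) and overlapped the controls at 20 µM (-0.06 ± 0.034, adjusted p = 0.151).

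SLC7A5 and SLC3A2 encode the light and heavy chain of a single exchanger, LAT1 with 4F2hc, which imports leucine and other large neutral amino acids. Their transcripts parted at 30 µM. SLC7A5 was at 1072, 1083 and 1058 CPM in the controls, 1125, 1188 and 1159 CPM at 20 µM and 939, 953 and 962 CPM at 30 µM, and SLC3A2 was at 224, 226 and 225 CPM in the controls, 229, 252 and 247 CPM at 20 µM and 288, 285 and 294 CPM at 30 µM. At 30 µM SLC7A5 fell (log2 -0.17 ± 0.03, adjusted p = 8.12e-06) and SLC3A2 rose (log2 0.36 ± 0.035, adjusted p = 9.68e-11). At 20 µM SLC7A5 rose by 0.11 ± 0.03 (adjusted p = 0.0034) and SLC3A2 by 0.11 ± 0.035 (adjusted p = 0.0152). The call for SLC3A2 was lost without 20 µM library 2 (adjusted p = 0.102), 20 µM library 3 (0.0866) or the trio of libraries named above (0.112), with 0.00131 to 0.112 over the 19 settings. Per exon length SLC7A5 remained above SLC3A2 in every group, at 201 ± 2.38 against 55.8 ± 0.847 RPKM at 30 µM.

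SLC6A9, the glycine carrier GlyT1, and SLC1A4, the alanine and serine carrier ASCT1, reversed with dose. SLC6A9 was at 66.9, 62.1 and 58.4 CPM in the controls, 76.6, 79.8 and 79.8 CPM at 20 µM and 49.9, 45.9 and 51.5 CPM at 30 µM. It rose at 20 µM (log2 0.33 ± 0.051, adjusted p = 2.64e-06) and fell at 30 µM (log2 -0.35 ± 0.053, adjusted p = 7.22e-07). SLC1A4 was at 119, 123 and 119 CPM in the controls, 136, 141 and 137 CPM at 20 µM and 90.5, 90.5 and 95.1 CPM at 30 µM. Its changes were log2 0.20 ± 0.038, adjusted p = 7.99e-05 at 20 µM and log2 -0.38 ± 0.039, adjusted p = 2.20e-10 at 30 µM, and the groups did not overlap. SLC1A4 is the carrier of CARE letters that fell at 30 µM: of the other 8, ASNS, CEBPG, PPP1R15B, SLC7A1, SLC3A2 and SLC1A5 rose, and CHAC1 and JDP2 did not pass the test. Over all genes tested, 29.5% rose and 31.3% fell at that dose. The 7 genes that rose by at least 1 log2 unit at 30 µM had no CARE letters in their windows. These were PPP1R15A, SLC38A2, CEBPB, TRIB3, DDIT3, VLDLR and EIF2AK3. A link between the letters and the changes was not tested.

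Compared per exon length, the 40 genes spanned a wide range of levels in controls. SLC7A5 stood highest at 226 ± 2.67 RPKM, followed by PSAT1 at 197 ± 11.8, ATF4 at 149.9 ± 4.60 and ALDH18A1 at 119 ± 1.03 (mean ± SD, n = 3 libraries). SLC38A2 at 108 ± 3.05 and SLC1A5 at 104 ± 1.81 RPKM differed by less than the SD of SLC38A2. At 30 µM SLC38A2 led at 488 ± 12.2 RPKM, ahead of ATF4 at 201 ± 3.70 and SLC7A5 at 201 ± 2.38, a pair that differed by less than the SD of either, and TRIB3 at 181 ± 2.75. At the low end in controls stood CBS, NUPR1, VLDLR, ASNS and CHAC1, all under 1 RPKM. Among the kinases, EIF2AK1 was highest in every group (37.5 ± 0.578 RPKM in controls), and EIF2AK3 exceeded EIF2AK2 at 30 µM (18.9 ± 0.214 against 8.05 ± 0.0486 RPKM) but not in controls (9.20 ± 0.525 against 11.1 ± 0.254). Exon lengths are from GENCODE 29 and cover every annotated isoform, so they understate genes that use a short form.

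Other genes of the pathway came from lists chosen by function, also with earlier results of these data known. They are read against the same shares of all genes tested. These were 17.2% rising and 16.9% falling at 20 µM and 29.5% and 31.3% at 30 µM. Several counts below are near these shares. Of 30 further ATF4 targets 27 were tested, and of these 9 rose and 7 fell at 20 µM and 15 rose and 8 fell at 30 µM (median log2 changes 0.03 and 0.18). ATF3, a stress-induced repressor, was at 4.09, 4.64 and 4.49 CPM in the controls, 9.10, 9.15 and 9.67 CPM at 20 µM and 65.9, 69.8 and 68.1 CPM at 30 µM. GDF15, a secreted stress cytokine, and ATF3 had the largest rises at 30 µM, 4.21 ± 0.04 and 3.95 ± 0.075, after 0.81 ± 0.037 and 1.08 ± 0.089 at 20 µM. At the other end were the tRNA synthetases LARS1 and EPRS1, at -0.49 ± 0.045 and -0.19 ± 0.036 at 30 µM. Among 21 genes for eIF2, eIF2B and regulators of the kinases, 1 rose and 9 fell at 20 µM and 7 rose and 7 fell at 30 µM (median log2 changes -0.13 and -0.05). EIF1, which guards start codon choice, and DNAJC3, an inhibitor of PERK and PKR, rose most at 30 µM (1.09 ± 0.038 and 0.50 ± 0.04). IMPACT, an inhibitor of GCN2 activation, and OMA1, a mitochondrial protease that can activate HRI signalling, fell most (-0.83 ± 0.134 and -0.52 ± 0.113).

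Of 22 further amino acid and folate enzymes 20 were tested; 3 rose and 6 fell at 20 µM, and 5 rose and 10 fell at 30 µM (median log2 changes -0.11 and -0.27). GOT1, the cytosolic aspartate transaminase, rose most at 30 µM (1.32 ± 0.041), and GPT, the cytosolic alanine transaminase, and GLDC of glycine cleavage fell most (-1.16 ± 0.106 and -1.12 ± 0.042). GPT was at 11.7, 12.7 and 12.8 CPM in the controls, 14.99, 12.7 and 14.6 CPM at 20 µM and 5.09, 5.57 and 5.95 CPM at 30 µM, the opposite direction to its mitochondrial relative GPT2 at that dose. Of 25 further transporters 18 were tested, and 11 rose and 2 fell at 20 µM and 11 rose and 4 fell at 30 µM (median log2 changes 0.21 and 0.47). SLC43A2, a carrier of large neutral amino acids, and SLC1A2, a glutamate carrier, had the largest rises at 30 µM (1.40 ± 0.057 and 1.38 ± 0.051), and SLC16A10, a carrier of aromatic amino acids, the deepest fall (-0.47 ± 0.058), followed by SLC38A5, a glutamine carrier (-0.20 ± 0.044).

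The IRE1 and ATF6 arms of the unfolded protein response, which share the endoplasmic reticulum trigger with PERK, were mixed. Of 15 genes, 3 rose and 9 fell at 20 µM and 6 rose and 8 fell at 30 µM (median log2 changes -0.17 and -0.13). DNAJB9, a chaperone partner, rose by 0.69 ± 0.068 and 1.67 ± 0.065 log2 units at the lower and higher dose, and ERN1, which encodes IRE1, by 0.34 ± 0.049 and 1.37 ± 0.048. CRELD2 and SDF2L1, both resident proteins of the endoplasmic reticulum, fell at both doses, with log2 changes of -1.03 ± 0.074 and -0.69 ± 0.081 at 30 µM.

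Counting limits bear on some of these values. Named pseudogene copies exist for 7 of the 40 genes, ATF4 among them. On the same strand, 4 of the 40 genes share exon bases with another gene in GENCODE 29. These are ASNS (44.6% of exon bases), PYCR1 (14.1%), DDIT3 (8.03%) and ATF5 (2.51%). Exons of 17 of the 40 genes overlap a gene on the opposite strand in GENCODE 29, most in DDIT4 (41.2% of exon bases), MTHFD2 (33.2%), DDIT3 (31.6%), SLC1A5 (23.8%) and ATF5 (21.2%). How strand was handled in counting is not stated. Reads in shared exons may have been left unassigned or may include those of the partner, so the levels of these genes are uncertain.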

How the data were processed

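The members, roles and gene lists were chosen with earlier results of these data known. The deposited files hold 1 whole-number count per gene for each library. The submitters' processing notes name FastQC, STAR 2.7.10a, HTSeq and hg38. Neither strand setting nor annotation release is stated there. PolyA RNA is the labelled molecule, while the labelled protocol depletes ribosomal RNA from total RNA. Whether a further incubation that the series text mentions was used for these libraries is unclear. Closing HTSeq totals were left out of library sizes; they made up 40.6% to 44.0% of records.

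Symbols came from the reference table (62686 of 62703 identifiers matched), the identifier with the most counts being kept. Genes kept by filterByExpr were scaled with TMM factors and fitted in edgeR 4.0.16 (robust quasi-likelihood, a mean per group over 9 libraries; common biological coefficient of variation 0.0529) in R 4.3.3, with Benjamini-Hochberg adjustment over 17623 genes at 0.05. The SE is the log2 change over the square root of F. RPKM is CPM per kilobase of GENCODE 29 exons. The fit was run on simulated counts in which far fewer genes changed than were called here. That run does not check scaling or error rates where so many genes change. Genes were described by library where they passed the test at 30 µM with at least 5 CPM and no overlap (up to 4 per direction and role), with ATF4, DDIT3, ASNS, the kinases, PPP1R15A and genes that reversed between doses; the rest were added after their values were seen. From each other list the 2 largest and 2 smallest changes at 30 µM by the same conditions were taken, of which 1 gene is not reported here. Alternatives were DESeq2 1.42.0, limma 3.58.1 voom, other size factors, other count filters, only the groups compared, a replicate block and libraries left out. Within groups, every pair of libraries differed by more than counting error (chi-square per gene 2.07 to 7.80), so none was counted as a repeat run of another library. This does not show that they came from separate cultures.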

Additional observations from a re-analysis of the deposited data

How the results depend on the processing

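Over 19 alternative settings, the number of the 40 genes that rose and fell was 18 to 22 and 4 to 7 at 20 µM against control, 16 to 20 and 13 to 19 at 30 µM against control, and 12 to 18 and 15 to 19 at 30 µM against 20 µM. Leaving out 1 library at a time gave 18 to 21 and 4 to 6, 19 to 20 and 13 to 14, and 18 to 18 and 15 to 17. Of 120 single-gene changes (40 genes in 3 comparisons), 91 kept their direction and their side of the threshold under every setting run. Scaling by library size alone moved the median of all genes by -0.210 log2 units at 30 µM against control and by -0.193 at 30 µM against 20 µM, by its construction. Under it 3029 genes were higher and 7690 lower at 30 µM than at 20 µM, against 4942 and 5099 with TMM, and 3530 rose and 8022 fell against control, against 5192 and 5515. MTHFD2 then stood at -0.0027 at 30 µM against control, and MTHFD2 and GPT2 at -0.051 and -0.013 at 30 µM against 20 µM, the 3 values that changed sign; relative to the shift of the median they did not. Under the same scaling EIF2S1, NUPR1, JDP2 and ALDH1L2 passed as falls at 30 µM against control (-0.22, -0.35, -0.31 and -0.27), JDP2 also passed as lower at 30 µM than at 20 µM (-0.22), and ATF5 no longer passed between the doses (adjusted p = 0.081). CEBPG passed as a rise at 20 µM with upper-quartile factors (0.0314) and with the filter at 50 counts (0.0348). The falls of EIF2AK1 and SHMT2 between the doses were the calls lost under the most settings (adjusted p 4.36e-09 to 0.107 and 2.35e-09 to 0.119), and the cause was not tested.

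The libraries carry replicate numbers shared across groups. With the replicate number as a block, 20 of the 40 genes rose and 6 fell at 20 µM, 19 and 13 at 30 µM, and 18 and 17 between the doses; over all genes the block gave 2997 and 2955, 5155 and 5480, and 4921 and 5034. Deviations from the group mean correlated at -0.202 to 0.352 over the 9 same-numbered pairs, with 4 pairs over 0.1, and 1 of 9 libraries correlated best with its own number in both other groups, so the numbers were not taken to pair the libraries. A grouping across the numbers was present. Control 1, 20 µM 3 and 30 µM 3 correlated with each other at 0.331 to 0.352. With every other library of another group they correlated at -0.256 to -0.147. The block by replicate number does not follow this grouping, and its source was not tested. Counts of 10 to 21 per library limit CHAC1, and ASNS, CBS and NUPR1 rest on fewer counts than the other genes described by library.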
